A study of Mus musculus with 6 samples.

Results

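The 8 genes described here belong to the PI3K-Akt-mTOR axis, and they were taken by symbol from a list of kinases, kinase subunits and transcription factors of that pathway. They are Pik3ca and Pik3r1, which encode the main catalytic and regulatory subunits of class I PI3K, the kinases Akt1 and Akt2, the kinase Gsk3b, the transcription factors Foxo1 and Foxo3, and the kinase Mtor. All 8 were found among the 52550 genes of the files, and all 8 passed the filter on low counts that kept 18795 genes. Akt2 heads the group because its difference between TBI and sham was already known from these libraries, so its values in that comparison are a description and are given without a test. The other 7 genes were listed for their place in the pathway, with the results of these data in view.

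Hippocampal RNA was sequenced from 3 sham-operated and 3 TBI mice, 24 h after surgery, with 1 library per mouse (Sham1 to Sham3 and TBI1 to TBI3). All were male mice labelled C57BL / 6, given as C57B6/J in the study's methods. TBI was a moderate controlled cortical impact through a craniotomy over the right parietal bone, and sham mice had the craniotomy without the impact. The hippocampus was exposed on the injured and on the opposite side, so tissue far from the impact may be part of a sample, and a single time point after injury was taken. The values are estimated counts per gene, which the authors made with HISAT2 and StringTie, and CPM stands here for counts divided by the library size after TMM scaling.

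Insulin, insulin-like growth factors and neurotrophins act through receptor tyrosine kinases, which recruit PI3K to the membrane. The lipid that PI3K makes brings Akt to the membrane, where PDK1 and mTORC2 activate it by phosphorylation. Active Akt phosphorylates GSK3 kinases and FoxO factors, which are thereby inhibited or kept out of the nucleus, and it releases mTORC1, which drives protein synthesis. In neurons the pathway is known for its part in survival, growth and synaptic plasticity. Most of its control lies in phosphorylation, which RNA counts do not show.

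The promoter windows at annotated starts of Akt1 and Akt2 are shown because the levels of these relatives are compared per length. Each window is the 250 bases before a transcription start, taken from RefSeq on GRCm38.p6, where all 8 genes were matched, with 13 windows in all. Capitals mark a FoxO core motif (GTAAACA) or a GC box (GGGCGG), searched on both strands. The Akt2 window lies at chr7:27591302-27591551 on the plus strand, before the first of 4 annotated starts, and the Akt1 windows at chr12:112674885-112675134 and chr12:112674277-112674526 on the minus strand.
Akt2, first start: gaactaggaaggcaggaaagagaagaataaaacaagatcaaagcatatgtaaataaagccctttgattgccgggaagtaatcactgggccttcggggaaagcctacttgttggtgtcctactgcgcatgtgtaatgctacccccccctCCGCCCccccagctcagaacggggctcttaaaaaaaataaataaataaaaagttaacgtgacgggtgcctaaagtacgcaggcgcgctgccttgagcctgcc
Akt1, first start: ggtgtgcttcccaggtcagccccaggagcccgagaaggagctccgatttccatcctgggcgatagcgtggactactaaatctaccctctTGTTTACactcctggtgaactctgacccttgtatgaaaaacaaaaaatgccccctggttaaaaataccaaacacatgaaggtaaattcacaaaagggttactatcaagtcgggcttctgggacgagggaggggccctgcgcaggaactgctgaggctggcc
Akt1, second start: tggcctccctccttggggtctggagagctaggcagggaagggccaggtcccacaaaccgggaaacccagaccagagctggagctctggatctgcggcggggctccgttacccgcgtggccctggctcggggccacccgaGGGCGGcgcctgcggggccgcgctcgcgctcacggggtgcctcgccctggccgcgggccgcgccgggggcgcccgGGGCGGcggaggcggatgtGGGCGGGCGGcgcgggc
The Akt2 window had 1 GC box, 10 CpG and a GC content of 48.8%. The first Akt1 window had 1 FoxO core motif, 7 CpG and a GC content of 52.0%, and the second had 4 GC boxes, of which 2 overlap, 31 CpG and a GC content of 78.4%. Among 32851 windows of the same length the FoxO core motif was found in 3.17% and the GC box in 32.7%, and the medians were 6 CpG and a GC content of 52.4%. The other 3 Akt2 windows held neither motif. Counts per gene do not show which start was in use.

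Single libraries stood apart in markers of other brain regions and of oligodendrocytes. The summed level of 6 striatal markers was 3691 CPM in TBI1 and 131 to 181 CPM in the others, and that of 5 cerebellar markers was 1445 CPM in TBI3 and 9.38 to 38.7 CPM in the others. The 4 choroid plexus genes, Ttr by far the highest, summed to 1980 to 2293 CPM in Sham1, Sham3 and TBI2 and to 46.1 to 239 CPM in Sham2, TBI1 and TBI3. The 7 oligodendrocyte markers summed to 3019 CPM in Sham2 and to 8849 to 10860 CPM in the others. The summed level of 8 neuronal markers was 6202 to 6542 CPM in sham and 5409 to 5663 CPM in TBI, although only 2 of the 8 were lower in every TBI library than in every sham library. Markers of hippocampal neurons were present in every library, with sums of 578 to 741 CPM in sham and 344 to 499 CPM in TBI, and 3 of 6 were apart. The sum of TBI1 rests on Wfs1, at 276 CPM against 64.4 to 175 CPM in the others. In TBI1, Prox1 was at 19.6 CPM against 56.0 to 96.0 CPM in the others, Fibcd1 at 13.1 against 49.5 to 142 CPM, and Neurod6 at 29.3 against 84.7 to 252 CPM. Sums for the 4 thalamic genes were 76.8 to 329 CPM in sham and 98.1 to 518 CPM in TBI. Astrocyte (6 genes), microglial (7), oligodendrocyte precursor (4) and endothelial (5) sums overlapped between the groups, but the microglial sum was 417 CPM in TBI1 and 198 to 274 CPM in the others. Gfap, an astrocyte gene that marks reactivity, was at 4055 CPM in Sham2 and 541 to 1478 CPM in the others, while the astrocyte genes Slc1a2 and Gja1 were lowest in Sham2. Skeletal muscle and adipose markers (4 genes each) summed to at most 7.33 and 0.617 CPM.

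**Figure D1:**
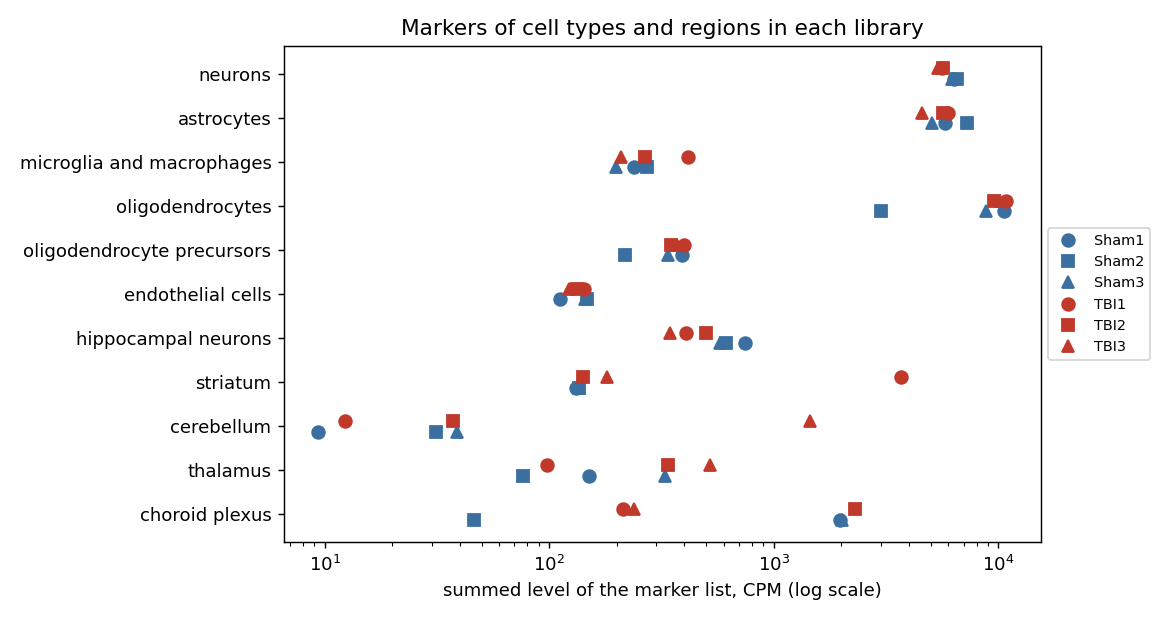
Summed CPM of each marker list (x axis, log scale) in each of the 6 libraries, with sham in blue, TBI in red and the marker shape giving the mouse. TBI1 lies far to the right for striatal markers (3691 CPM), TBI3 for cerebellar markers (1445 CPM), and Sham2 to the left for oligodendrocyte markers (3019 CPM).

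Akt2 was the gene of the group with the widest gap between sham and TBI. Akt2 (ENSMUSG00000004056.15, GRCm38, chromosome 7, 27591552 to 27640826, plus strand) has 14 annotated transcripts and shares no exonic base with another gene. It encodes the Akt kinase best known for insulin-stimulated glucose uptake. Its level was 58.9, 47.5 and 55.8 CPM in the sham mice 1 to 3, against 88.6, 100.8 and 123 CPM in the TBI mice 1 to 3. All TBI libraries lay above all sham libraries, with a ratio of 1.51 between the lowest of the former and the highest of the latter. Sham averaged 54.1 ± 5.86 CPM and TBI 104 ± 17.5 CPM (SD, n = 3 each), which is 1.93 times as high. The fitted log2 fold change was 0.95, with 0.16 as its standard error.

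With 1 library left out at a time, the log2 fold change of Akt2 lay between 0.80, without TBI3, and 1.05, without TBI1. TBI3, the library with cerebellar markers, held the highest level of Akt2. In bulk tissue a higher level per cell and a larger share of cells that express the gene cannot be told apart.

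A gene was called where its p lay below 0.05, its adjusted p below 0.1 and its fold change beyond 1.5 in either direction. By edgeR's quasi-likelihood test 0 of the 18795 genes were called (0.0%), none of the 8 members among them, while 806 genes (4.29%) had an unadjusted p under 0.05. DESeq2 with its defaults, the tool of the study, called 46 of 20988 genes (0.219%). Akt2 was the only one of the 8 members among them, and ranked 10 by p. This call is what placed Akt2 at the head of the group and is no separate evidence.

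Akt1, the most abundant of the 8 genes per length, showed no such gap. It encodes the Akt kinase best known for growth and survival. Akt1 (ENSMUSG00000001729.14, chromosome 12, 112653821 to 112674884, minus strand) was at 227, 205 and 197 CPM in sham and 216, 205 and 199 CPM in TBI. The ranges overlapped almost fully. The log2 fold change was -0.022 with a 95% interval from -0.27 to 0.23 (edgeR, adjusted p 0.992), so the interval did not reach a fold change of 1.5 in either direction. The sign of so small a value was not stable, and it was 0.045 without Sham1.

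The share of Akt2 in the pair was higher in each TBI library than in any sham library. Levels were set per length by dividing counts by the exon bases of each gene and scaling each library to the same sum (TPM), since genes differ in length. Akt1 was at 164 ± 8.39 TPM in sham and 159 ± 4.82 TPM in TBI, and Akt2 at 24.2 ± 1.84 and 46.2 ± 8.63 TPM (SD, n = 3 each). The share of Akt2 in the sum of both was 13.0%, 11.8% and 14.0% in the sham mice, against 19.1%, 22% and 26.2% in the TBI mice. The groups did not overlap. It is a share of this pair alone and not of all Akt kinases. It rests on the same comparison that chose Akt2 and is not tested.

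**Figure D2:**
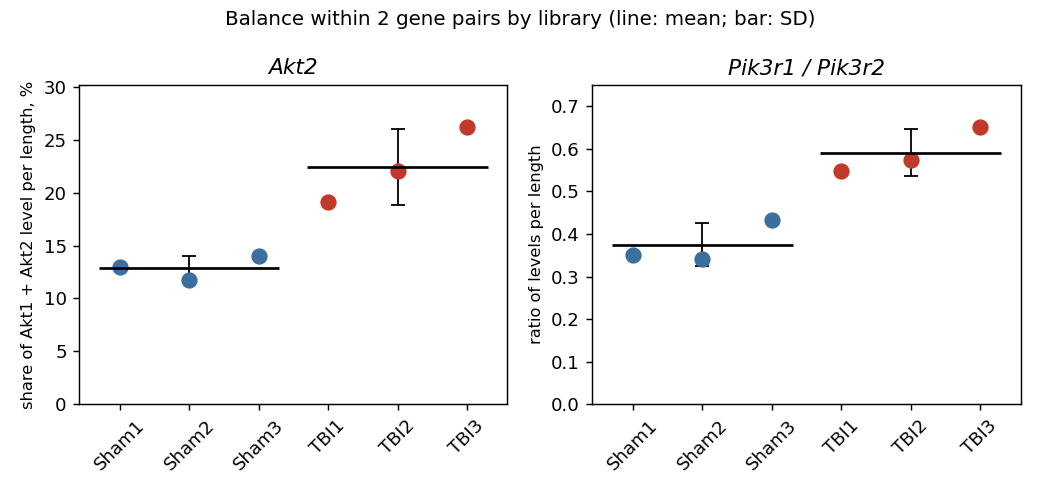
Left, share of Akt2 in the summed level per length of Akt1 and Akt2 (percent), and right, ratio of Pik3r1 to Pik3r2 per length, in each library (sham blue, TBI red, line and bar for mean and SD, n = 3). The Akt2 share was 12.9% in sham and 22.5% in TBI on average, and in both panels no TBI library overlaps a sham library.

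Among the PI3K subunits, Pik3r1 was higher and Pik3r2 lower in each TBI library than in any sham library. Pik3r1 (ENSMUSG00000041417.15, chromosome 13, 101680563 to 101768217, minus strand) encodes the main regulatory subunit and was at 133, 133 and 146 CPM in sham and 161, 177 and 171 CPM in TBI. Its log2 fold change was 0.30, with a 95% interval from 0.059 to 0.55, and edgeR gave it a p of 0.0223, or 0.982 once adjusted. Pik3r2, which is no member of the group, encodes a second regulatory subunit, and its level was 157, 162 and 140 CPM in sham and 122, 128 and 109 CPM in TBI. Its log2 fold change was -0.36, for which edgeR gave a p of 0.0208, or 0.982 once adjusted. Neither gene passed the adjusted threshold. These were the 2 of 9 class I subunits with separate groups (22.2%, beside 10.2% of all genes). Of all genes, 4.77% were separate and higher in TBI and 5.45% separate and lower. The same 2 had an unadjusted edgeR p under 0.05 (22.2%, beside 4.29% of all genes). Per length, the ratio of Pik3r1 to Pik3r2 was 0.375 ± 0.05 in sham and 0.591 ± 0.0543 in TBI (SD, n = 3 each). The pair was chosen after the values were seen, so this ratio is not tested.

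Pik3ca, which encodes the catalytic subunit that neurons share with most cells, was nearly level. Pik3ca (ENSMUSG00000027665.13, chromosome 3, 32397671 to 32468486, plus strand) was at 42.7, 45.5 and 49.9 CPM in sham and 47.8, 46.5 and 49.6 CPM in TBI. The groups overlapped, and the log2 fold change was 0.059 (95% interval -0.21 to 0.33, edgeR adjusted p 0.984). With 1 library left out it ran from 0.014 without Sham1 to 0.12 without Sham3. Of the 9 class I subunits 5 were higher and 4 lower, with 0.059 as the median log2 fold change, beside 0.0091 for all genes tested. The widest value among them was that of Pik3r6, -1.03 (standard error 0.68), which was 0.11 without Sham2.

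Foxo3 was, with Akt2 and Pik3r1, a member with separate groups. FoxO factors are transcription factors that switch on genes of stress resistance, autophagy and cell death when Akt is inactive. Foxo3 (ENSMUSG00000048756.11, chromosome 10, 42181841 to 42276755, minus strand) was at 66.9, 72.5 and 78.6 CPM in sham and 105, 85.4 and 118 CPM in TBI. The gap was narrow, with TBI2 at 1.09 times Sham3. The log2 fold change was 0.50, with a 95% interval from 0.14 to 0.86, and edgeR gave it a p of 0.0137, or 0.982 once adjusted. It ran from 0.38 without TBI3 to 0.61 without TBI2. With DESeq2's defaults Foxo3 had an adjusted p of 0.642, and without TBI2 it was called with an adjusted p of 0.0985, in a fit that called 325 of 19701 genes (1.65%). With Sham2, TBI1 and TBI3 left out together the log2 fold change of Foxo3 was 0.23.

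Foxo1 showed a different pattern, in which 1 library held the whole difference. Foxo1 (ENSMUSG00000044167.6, chromosome 3, 52268336 to 52353221, plus strand) was at 36.0, 42.2 and 31.2 CPM in sham, 89.0 CPM in TBI1, and 33.4 and 30.2 CPM in TBI2 and TBI3. TBI1 is the library with high striatal and low hippocampal markers, and their part in the values of Foxo1, and of Gsk3b and Pdpk1, which were also highest there, was not tested. The log2 fold change was 0.48 (95% interval -0.53 to 1.50, edgeR adjusted p 0.982) and -0.20 without TBI1. The antisense gene Gm20402 shares 674 exonic bases (7.78%) with Foxo1, and it was at 2.59 to 4.09 CPM in sham, 6.81 CPM in TBI1 and 2.84 to 3.35 CPM in the other TBI libraries. Whether the counts respect strand is not given in the sources used here, so reads on those bases may belong to either gene.

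The other FoxO genes did not follow a common direction. The log2 fold change was 0.38 for Foxo4 (standard error 0.24) and -0.66 for Foxo6, a FoxO gene of the brain (standard error 0.30), and the groups overlapped in both. The value of Foxo4 was 0.16 without Sham2, and that of Foxo6 was -0.41 without TBI3. Per length, Foxo6 was at 42.5 ± 11.2 TPM in sham and 26.4 ± 8.30 TPM in TBI, Foxo3 at 30.8 ± 3.15 and 43.0 ± 7.63 TPM, Foxo4 at 30.8 ± 8.02 and 39.8 ± 4.13 TPM, and Foxo1 at 13.5 ± 2.38 and 18.5 ± 11.9 TPM (SD, n = 3 each). In sham, Foxo6 had the highest mean, and in TBI, Foxo3 did.

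In Gsk3b and Mtor, which stand downstream of Akt, the groups overlapped. Gsk3b encodes a kinase of glycogen synthesis and tau phosphorylation that Akt inhibits. Gsk3b (ENSMUSG00000022812.13, chromosome 16, 38089001 to 38246084, plus strand) was at 202, 206 and 205 CPM in sham, 271 CPM in TBI1, and 199 and 200.4 CPM in TBI2 and TBI3. The sham libraries lay within a coefficient of variation of 0.985%, against a median of 19.2% over all genes tested, and only TBI1 stood outside them by more than a few CPM. The log2 fold change of 0.13 (95% interval -0.22 to 0.48, edgeR adjusted p 0.982) was -0.031 without TBI1. Mtor (ENSMUSG00000028991.15, chromosome 4, 148448611 to 148557683, plus strand), the kinase of both mTOR complexes, was at 112, 107 and 93.9 CPM in sham and 111, 92.7 and 103 CPM in TBI. Its log2 fold change was -0.027 (95% interval -0.32 to 0.27, edgeR adjusted p 0.992), and it was 0.033 without Sham1 and without TBI2.

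**Figure D3:**
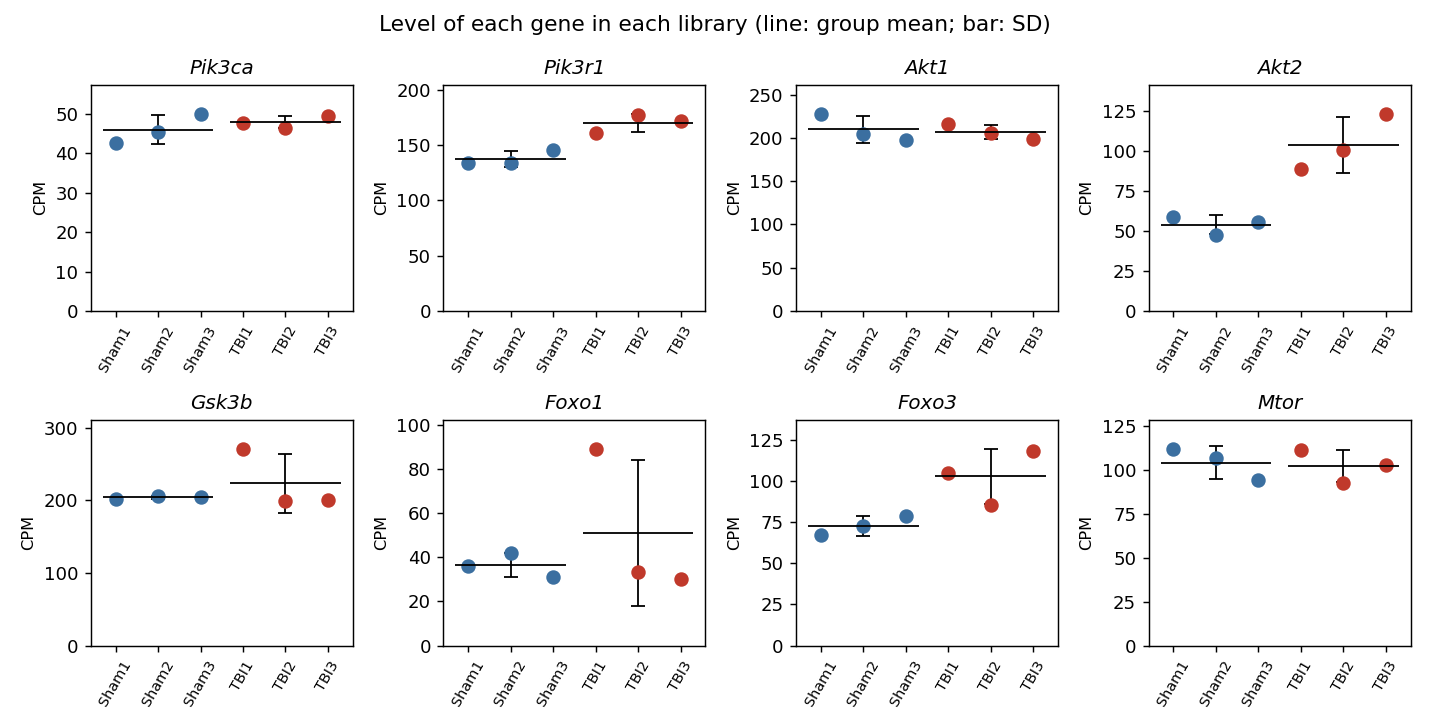
Level of each of the 8 genes in CPM (y axis, from 0) in each library (x axis), with sham in blue, TBI in red, and line and bar for the mean and SD of 3 libraries. The groups are separate for Akt2, Pik3r1 and Foxo3, while Foxo1 and Gsk3b are high in TBI1 alone (89.0 and 271 CPM).

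Counted over the 7 members other than Akt2, 2 had an unadjusted p under 0.05 and both, Pik3r1 and Foxo3, were higher in TBI. The share of all genes with such a p and a higher level in TBI was 2.16%. The same 2 of 7 had separate groups with TBI above sham, as had 4.77% of all genes tested. The edgeR p-values of the 7, once adjusted, ran from 0.982 to 0.992, and 0 were called. Their median log2 fold change was 0.13, the value of Gsk3b, beside 0.0091 for all genes. Without TBI1 the median was again the value of Gsk3b, then -0.031, beside -0.00087 for all genes. The sign of the median thus rests on 1 library.

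**Figure D4:**
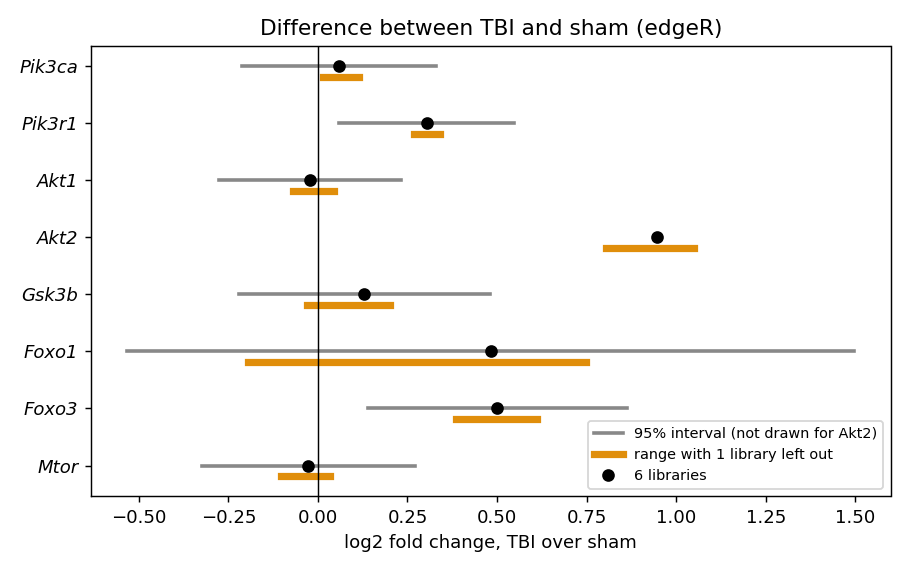
Log2 fold change of TBI over sham for the 8 genes (black points), with the 95% interval of the edgeR fit in grey and, in orange, the range when each of the 6 libraries is left out in turn. The interval is above 0 for Pik3r1 and Foxo3 before adjustment, and the orange range crosses 0 for Akt1, Gsk3b, Foxo1 and Mtor. No interval is drawn for Akt2, which was chosen on this comparison.

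Ordered per length within sham, the 8 genes ran from Akt1 (164 TPM) through Gsk3b (66.6), Pik3r1 (43.7), Mtor (33.0), Foxo3 (30.8), Akt2 (24.2) and Pik3ca (16.3) to Foxo1 (13.5 TPM). The ranges of neighbours overlapped for Mtor and Foxo3 and for Pik3ca and Foxo1, and were separate for the other neighbours. In TBI, Akt2 stood in place 4 with 46.2 TPM, between Pik3r1 (53.2 TPM) and Foxo3 (43.0 TPM), and overlapped both. In sham all 8 genes varied less than the median gene, with coefficients of variation from 0.985% (Gsk3b) to 15.1% (Foxo1), against 19.2%. In TBI they ran from 3.21% (Pik3ca) to 65.0% (Foxo1), against a median of 19.7%.

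A wider set of 107 genes in 13 lists by role, which holds the 8 members but not every gene of the pathway, was read from the same fit. Of the 99 genes that are no members 97 were tested, and Tcl1 and Trim63 did not pass the filter on low counts. None of the 97 was called by edgeR, as for all genes (0.0%). In 5 of them (5.15%) the p before adjustment lay below 0.05, beside 4.29% of all genes tested. Of these 2, Tbc1d4 and Cdkn1b, were higher (2.16% of all genes) and 3, Pik3r2, Akt1s1 and Bcl2l11, lower in TBI (2.13% of all genes). Groups were separate in 11 of the 97 (11.3%), beside 10.2% of all genes, with 5 higher and 6 lower in TBI, beside 4.77% and 5.45% of all genes. The wider pathway was thus near the background in both counts.

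Upstream of PI3K, levels of the 9 ligands, receptors and adaptors centred on a log2 fold change of -0.094 (median), 4 being higher, 5 lower and 0 at an unadjusted p under 0.05. Irs2, an adaptor of the insulin receptor, and Igf2, a growth factor of meninges and choroid plexus, had the most counts. The log2 fold change of Irs2 was -0.12, and it was 0.0068 without Sham2. Igf2 had -0.27 (standard error 0.92), with 7.35 CPM in Sham2 against 152 CPM in Sham3, and its value was 0.91 without Sham3. Irs1 was lower in each TBI library than in any sham library (20.6 to 22.1 CPM in sham, 11.7 to 19.2 CPM in TBI), with a log2 fold change of -0.38 and an edgeR p of 0.118 before adjustment, and with -0.19 without TBI1. Grb10, an adaptor that restrains the insulin receptor, was higher in each TBI library, at 23.9 to 36.8 CPM in sham and 37.8 to 47.1 CPM in TBI, and its log2 fold change of 0.43 had the lowest edgeR p of the list, 0.0617 before adjustment, and was 0.28 without Sham1. With Igf1r, these are 3 of 9 genes with separate groups (33.3%, beside 10.2% of all genes). Igf1r, a receptor for insulin-like growth factors, was at 57.9 to 62.8 CPM in sham and 56.2 to 56.7 CPM in TBI.

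The class II and III PI3K subunits and the inositol lipid phosphatases are counted apart from the class I subunits, which were 5 higher and 4 lower. All 4 class II and III PI3K subunits had positive log2 fold changes (median 0.18, Pik3c3 0.10 and Pik3c2a 0.010), and 5 of 6 inositol lipid phosphatases did (median 0.29, Inpp4a 0.29 and Inpp5e 0.25). Of all genes tested, 9662 of 18795 had positive values. None of these 10 genes had an unadjusted p under 0.05. With 1 library left out, the sign reversed in 5 of the 9 positive genes. Pik3c2a had -0.15 without Sham2 and Inpp4b -0.052 without TBI3, while Pik3c3 (-0.0072), Pik3r4 (-0.069) and Inpp5d (-0.12) reversed without TBI1. Without TBI1, Pik3c2b moved from 0.49 to 0.068 and Inpp4a to 0.18, and Inpp5e had 0.089 without TBI3.

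Around Akt itself, estimates for activators and inhibitors lay on both sides of 0. Pdpk1, which encodes the kinase PDK1, stood at 0.16 on the log2 scale, being at 214 CPM in TBI1 against 130 to 151 CPM in the other 5 libraries, and at -0.085 without TBI1. Of the 8 tested Akt inhibitors 3 were higher and 5 lower (median -0.085). They ran from -0.69 for Trib1 to 0.46 for Trib3, which encode pseudokinases that bind Akt. Trib1 had 0.51 without Sham2, where it was at 71.0 CPM against 13.7 to 27.6 CPM in the others. Trib3 was scarce, at 0.38 to 1.26 CPM, with a standard error of 0.62. Its value ran from 0.21 without TBI3 to 0.95 without Sham2. Trib2 had -0.27, and 0.38 without Sham2, and Them4 had -0.23, and -0.029 without TBI1. Prr5l, which encodes a partner of mTORC2, had 0.58 (standard error 0.34), and 0.28 without Sham2. Ppp2ca and Ppp2cb, the catalytic subunits of a phosphatase that removes phosphate from Akt, had -0.029 and 0.054, the first of which was 0.029 without Sham1.

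Among the 11 Akt substrates, which had a median of -0.082, 5 were higher and 6 lower. An unadjusted p under 0.05 was found in 3 (27.3%), the highest share of the 13 lists, beside 4.29% of all genes. The 5.15% of the wider pathway counts these same 3 genes. Of the 3, 2 were higher and 1 lower in TBI, beside 2.16% and 2.13% of all genes. Tbc1d4, a Rab regulator of glucose transporter traffic, was at 6.74, 6.43 and 13.8 CPM in sham and 20.7, 10.8 and 24.5 CPM in TBI, with overlapping groups (log2 fold change 1.06, standard error 0.42, edgeR p 0.0419). Cdkn1b, an inhibitor of cyclin-dependent kinases, was at 45.7, 42.3 and 38.2 CPM in sham and 48.3, 57.9 and 56.4 CPM in TBI (0.37, standard error 0.13, edgeR p 0.0280). Akt1s1, which encodes an inhibitory subunit of mTORC1, was at 48.9, 68.4 and 53.7 CPM in sham and 46.0, 39.5 and 41.2 CPM in TBI (-0.43, standard error 0.16, edgeR p 0.0306). Each of the 3 had an edgeR adjusted p of 0.982. With 1 library left out, the value nearest to 0 was -0.28 for Akt1s1 (without Sham2). It was 0.29 for Cdkn1b (without Sham3) and 0.81 for Tbc1d4 (without TBI3). Gsk3a, the close relative of Gsk3b and the substrate with the most counts, had a log2 fold change of -0.082. That value ran from -0.13 without TBI1 to -0.026 without Sham1.

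Of the 14 FoxO target genes tested, 10 were higher and 4 lower, with a median of 0.13, beside 0.0091 for all genes tested. Positive values were held by 9662 of the 18795 genes tested. With 1 library left out, Ccng2 (-0.0021 without TBI1), Bnip3 (-0.056 without TBI2) and Cat (-0.078 without Sham2) turned negative. Bcl6 (0.035 without TBI1) and Gadd45a (0.47 without Sham2) turned positive. Bcl2l11, which encodes the cell death protein Bim, was lower in TBI, at 4.49, 5.01 and 5.34 CPM in sham and 3.19, 2.75 and 3.06 CPM in TBI, and its groups were separate (log2 fold change -0.72, standard error 0.23, edgeR p 0.0161, adjusted 0.982). Sesn3, which encodes a sestrin, had the largest value of the list, 1.23 (standard error 0.90), and it ran from 0.57 without TBI1 to 2.32 without Sham2. It was at 23.1, 114 and 29.0 CPM in sham and 226, 141 and 24.0 CPM in TBI, so both groups held high and low libraries. Gabarapl1 and Sod2, the targets with the most counts, had log2 fold changes of -0.043 and 0.032, and that of Gabarapl1 was 0.053 without TBI3.

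Downstream, the lists of the mTOR branch had medians near 0, while single genes lay further out. The 4 subunits of the mTOR complexes ran from -0.033 (Rptor) to 0.17 (Deptor), where Rptor was 0.027 without Sham2 and Deptor 0.0012 without Sham1. The 5 genes of the TSC-Rheb switch had a median of -0.071, with Tsc2 at -0.15 and Rheb at -0.15. With a library left out, Tsc2 ran from -0.28 without TBI1 to -0.076 without Sham2, and Rheb was -0.035 without TBI1. The 9 mTORC1 outputs had a median of -0.049, with Rps6 at 0.11 and Eif4b at 0.058, which was -0.011 without Sham2. Of these 9, 3 had separate groups (33.3%, beside 10.2% of all genes), with 2 higher and 1 lower in TBI, beside 4.77% and 5.45% of all genes. Rps6kb2, an S6 kinase gene, was 7.38 to 7.58 CPM in sham and 7.87 to 10.7 CPM in TBI (log2 fold change 0.36), and Tfeb, a lysosomal transcription factor that mTORC1 restrains, was 13.6 to 14.5 and 15.1 to 15.9 CPM (0.13). Eif4ebp1, which encodes a repressor of translation, had -0.63, and 0.56 without Sham2. Eif4e, the cap-binding factor of translation, was 120 to 130 CPM in sham and 105 to 108 CPM in TBI, with separate groups and an edgeR p of 0.0642 before adjustment. Rag GTPases and amino acid sensors (15 genes) had a median of 0.050, with Rraga at -0.061 and Rragd at -0.0066, which ran from -0.33 to 0.26 with a library left out. Sesn2, a leucine sensor, had the lowest value of that list, -0.44 (standard error 0.23), and ran from -0.64 without TBI3 to -0.25 without TBI1. In none of these 4 lists did a gene have an unadjusted p under 0.05.

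**Figure D5:**
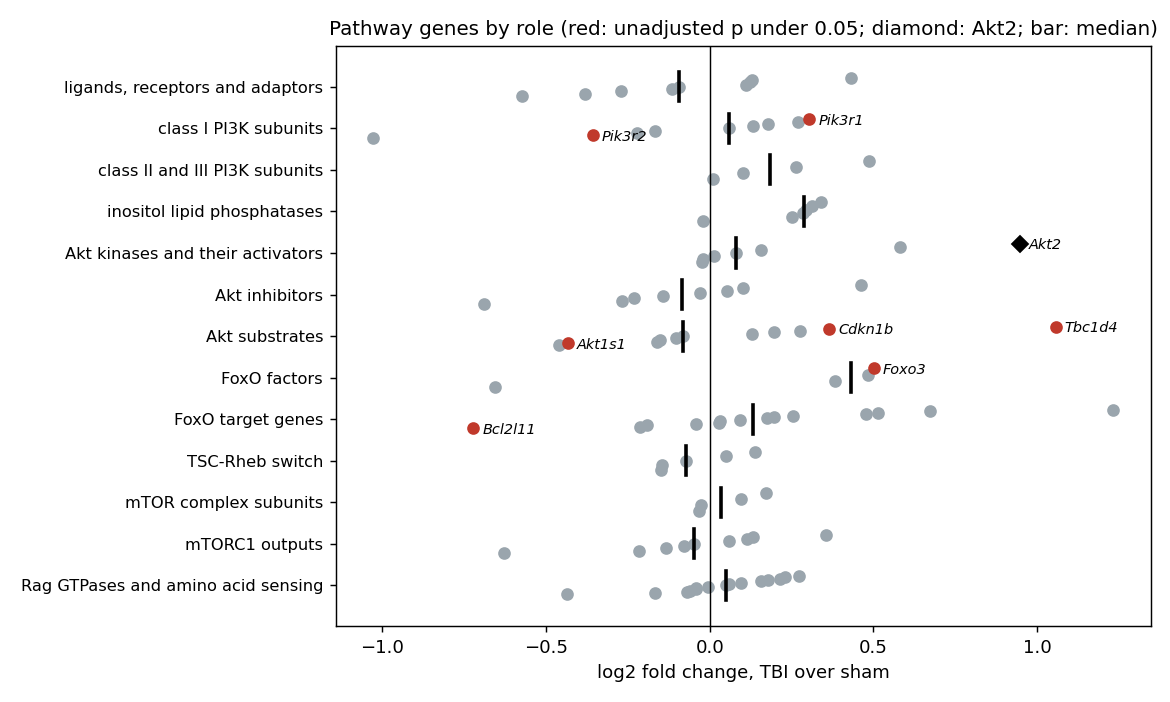
Log2 fold change of TBI over sham (x axis) for the 105 tested genes in 13 lists by role (y axis), with red points for an unadjusted p under 0.05 in the edgeR fit, a black diamond for Akt2 and black bars for list medians. Values lie on both sides of 0 in 12 of the 13 lists, and no gene passed the adjusted threshold.

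The genes whose log2 CPM followed Akt2 most closely over the 6 libraries were Hsbp1l1, Dynlt1c, Rom1, 9130208D14Rik and Gm12657, with a Pearson correlation of 0.976 to 0.982. Zfp382, Spred2, Arsi, Exoc5 and Hid1 ran opposite to it, with -0.988 to -0.978. These are the extremes of 18795 genes over 6 points, which share the difference between the groups. Hsbp1l1, 9130208D14Rik and Gm12657 were at no more than 1.57 CPM in any library, while Spred2 was at 113 to 121 CPM in sham and 92.6 to 104 CPM in TBI. Of the members, Pik3r1 (0.932) and Foxo3 (0.852) had the highest correlations with Akt2, and Akt1 had -0.18. Pik3r1 and Foxo3 are also the members that, like Akt2, had separate groups. Their correlations thus hold the same difference between TBI and sham, and a link beyond it was not tested.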

How the data were processed

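The authors ran FastQC on the reads, HISAT2 against GRCm38 and StringTie for quantification, as the paper and the submitters' processing notes state, and deposited 1 table of estimated counts per gene and mouse. The values are whole numbers without normalization, used as deposited. Versions of these 3 tools, annotation release, strand setting and how coverage became counts are not given in the sources used here. The value 4 occurred 5109 times and the value 3 2325 times, so these counts cannot be taken for single reads and no counting interval is given. Counts summed to 31630936 to 41771872 per library. Symbols were matched for 52403 of 52550 identifiers, and coordinates and exon lengths came from GENCODE vM21, of the same build.

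Groups came from the sample titles. R 4.3.3 was used with edgeR 4.0.16 (filterByExpr, TMM factors from 0.970 to 1.025, quasi-likelihood test, Benjamini-Hochberg adjustment over 18795 genes) and DESeq2 1.42.0. Each standard error is the log2 fold change divided by the root of F. An exact permutation test of 3 mice against 3 cannot give a p below 0.1, so none was run. Members and gene lists were chosen with earlier results of these data known. Named genes were the members, pathway genes with an unadjusted p under 0.05, the 2 with the most counts in each list, genes overlapping a member, and the 5 genes most and least like Akt2 in Pearson correlation of log2 CPM (prior count 2). Others (Gfap, Slc1a2, Gja1, Wfs1, Prox1, Fibcd1, Neurod6, Irs1, Igf1r, Grb10, Sesn2, Sesn3, Ccng2, Bnip3, Cat, Bcl6, Gadd45a, Pik3r4, Pik3r6, Pik3c2b, Inpp4b, Inpp5d, Trib1, Trib2, Trib3, Them4, Prr5l, Eif4e, Eif4ebp1, Rps6kb2, Tfeb, Cdkn1a, Foxo4, Foxo6, Deptor) were chosen after their values were seen. There were 14 planned and 7 added alternatives.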

Additional observations from a re-analysis of the deposited data

How the results depend on the processing

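Over the 21 alternatives the log2 fold changes ran from 0.80 to 1.05 for Akt2, 0.27 to 0.34 for Pik3r1 and 0.23 to 0.62 for Foxo3. The choice of tool and of libraries moved the calls. With each library left out of the edgeR fit, 0 to 1 genes were called, and 0 of the members and of the pathway genes. DESeq2 with its defaults called 46 genes, and on the filterByExpr genes without independent filtering 43, with 1 member and 1 pathway gene (Akt2) in each. Leaving single libraries out of the default DESeq2 run, chosen after seeing the data, gave 33, 62 and 122 called genes without Sham1, Sham2 and Sham3 and 43, 325 and 48 without TBI1, TBI2 and TBI3, 1 to 2 members and 1 to 2 pathway genes, the second being Foxo3 without TBI2, Cdkn1a without Sham2 and Tbc1d4 without Sham3. With Sham2, TBI1 and TBI3 left out together, also chosen after seeing the data, edgeR called 11 genes, 0 members and 1 pathway gene, Sesn3, from 1 TBI library whose spread is assumed to be that of the sham libraries. Without those 3 the log2 fold change was -0.00018 for Pik3ca, -0.035 for Gsk3b and -0.012 for Foxo1. With 1 library left out, in edgeR and in DESeq2, Akt1 ran from -0.070 to 0.045 and from -0.074 to 0.034, Gsk3b from -0.031 to 0.20 and from -0.044 to 0.20, Foxo1 from -0.20 to 0.75 and from -0.21 to 0.74, and Mtor from -0.10 to 0.033 and from -0.11 to 0.036, with 0.022 in DESeq2 without Sham1. The cause of these shifts was not tested. With 1 library left out, the mean ratio of Akt2 to Akt1 per length ran from 0.141 to 0.156 in sham and from 0.259 to 0.319 in TBI. Other scalings and filters left the edgeR count at 0.

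Neither the labels nor the methods state a pairing of same-numbered sham and TBI libraries. Correlations of their deviations from the group means were -0.0996, -0.065 and 0.153. Those of differently numbered libraries ran from -0.18 to 0.21. So few values cannot show whether same-numbered libraries shared a batch. The replicate block left the count of called genes at 0 and moved that at an unadjusted p under 0.05 from 806 to 723. It changed no call among the members, with 0 called.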
